A study of Mus musculus with 24 samples.

Results

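The genes described here encode apolipoproteins, the protein components of plasma lipoproteins, together with Mttp, the large subunit of the microsomal triglyceride transfer protein that loads lipid onto apolipoprotein B. The members were 10 genes (Apoa1, Apoa2, Apoa4, Apoa5, Apob, Apoc1, Apoc3, Apoe, Apom and Mttp), and every probe set that the platform annotation pairs with 1 of these symbols alone was taken. A probe set is a group of short oligonucleotides on an array that report 1 transcript. This gave 17 probe sets of 10 genes, out of 45037 probe sets on the array other than controls. All 17 passed the filter on low signal and were among the 22811 probe sets tested.

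Hepatocytes assemble very-low-density lipoprotein around a single apolipoprotein B molecule in the endoplasmic reticulum, a step that needs Mttp, and they secrete the apolipoproteins A-I and A-II of high-density lipoprotein. Apolipoproteins C-III and A-V act in opposite directions on the clearance of triglyceride-rich particles from plasma, and apolipoprotein E is a ligand by which the liver takes up their remnants. The genes sit partly in clusters. In the RefSeq annotation Apoa1, Apoc3, Apoa4 and Apoa5 are neighbours on chromosome 9, between Sik3 and Zpr1, and Apoc1 and Apoe lie next to each other on chromosome 7, beside Apoc2 and Apoc4.

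Livers came from male BALB/c mice, 6 weeks old on arrival, that ate a purified AIN93G diet for 14 days with no phloridzin (control) or with phloridzin at 0.1, 0.5 or 1.0% of the diet. Phloridzin is a plant glucoside that blocks sodium-glucose cotransport. The labels describe 6 mice per diet, kept 3 to a cage with darkness from 8 to 20 h, and 1 array per mouse. The 24 arrays did not behave as 24 RNA samples: 13 pairs of arrays differed by an SD of 0.0436 to 0.0577 log2 units over 1463 bright genes, against 0.108 or more in the other pairs, and such arrays were treated as repeats of the same RNA and entered the fit as their mean. A further 2 joins were made between sets that matched in their most variable genes. The comparisons therefore rest on 4 control samples (replicates 1 and 3, 2 and 4, 5, and 6), 3 samples at 0.1% (replicates 2, 4 and 5), 2 at 0.5% (replicates 1, 2, 3 and 6, and replicates 4 and 5) and 2 at 1.0% (replicates 2, 3, 5 and 6, and replicate 4). Replicates 1, 3 and 6 at 0.1% and replicate 1 at 1.0% held 1 RNA under the labels of 2 diets, and this RNA entered no comparison. Nothing shows that the 11 samples are separate mice, so p-values measure only the spread between these samples, which may be technical.

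The promoters of 8 of the 10 members are in the RefSeq promoter table (build GRCm38.p6), which gives 250 bases before and 50 bases after a transcription start. Those of Apoa4, Apob and Apom are shown. Of the sequence spellings searched, given below, only these members matched any other than TATAAA. In Apoa4 and Apob the capitals mark the match to CAAAGNNCA, a spelling of the core of sites bound by HNF4A, a hepatocyte transcription factor. In Apom they mark GGTCA followed, after any pair of bases, by GGTC.
Apoa4, chr9:46240594-46240893, plus strand: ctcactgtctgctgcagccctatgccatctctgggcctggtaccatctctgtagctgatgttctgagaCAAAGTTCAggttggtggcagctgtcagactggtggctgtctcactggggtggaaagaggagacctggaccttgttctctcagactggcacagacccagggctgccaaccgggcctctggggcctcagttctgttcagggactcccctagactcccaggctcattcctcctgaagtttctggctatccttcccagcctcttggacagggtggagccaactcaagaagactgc
Apob, chr12:7977427-7977726, plus strand: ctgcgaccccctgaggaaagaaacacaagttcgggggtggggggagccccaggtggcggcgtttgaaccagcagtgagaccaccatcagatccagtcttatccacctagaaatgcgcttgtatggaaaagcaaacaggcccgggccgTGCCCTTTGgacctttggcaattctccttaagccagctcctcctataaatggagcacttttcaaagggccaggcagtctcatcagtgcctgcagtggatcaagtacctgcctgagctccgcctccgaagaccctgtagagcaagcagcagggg
Apom, chr17:35131752-35132051, minus strand: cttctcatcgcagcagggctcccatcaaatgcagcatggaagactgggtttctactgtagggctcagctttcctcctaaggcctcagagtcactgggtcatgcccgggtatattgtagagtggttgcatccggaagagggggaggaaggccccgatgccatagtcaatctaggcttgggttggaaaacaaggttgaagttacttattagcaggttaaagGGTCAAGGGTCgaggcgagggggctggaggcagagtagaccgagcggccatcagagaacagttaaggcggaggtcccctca

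In the Apoa4 promoter the match starts 182 bases before the start site, and in Apob it starts 103 bases before it on the opposite strand. CAAAGNNCA occurs on either strand in 6.36% of the 32851 promoter entries, so its presence in these genes is a description of the sequence and not a site. Altogether 12 spellings were searched on both strands with earlier results of these data known, and some overlap each other. The narrower CAAAGTNCA (1.41% of entries), CAAAGNTCA (1.51%) and CAAAGTTCA (0.39%) matched Apoa4 at the same place, whereas CAAAGGTCA (0.478%) and CAAAGTCCA (0.475%) matched no member. The Apom match, 31 bases before the start site, is to a spelling found in 0.393% of entries, and in 0.113% with 1 more G in front. AGGTCA repeated after any 1 base (0.0396%), AGGNCA repeated after an A (0.0944%) and GTTAAT followed after 1 base by ATTAAC (0.00913%) matched no member. TATAAA (13.6% of entries) matched Apoa2, Apoa5, Apob and Apoe.

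None of the 17 probe sets passed the test in any comparison. The lowest adjusted p among them was 0.412 at 0.1% (Mttp 1419399_at), 0.943 at 0.5% (Apoa4 1417761_at), 0.706 at 1.0% (Apom 1419096_at), 0.408 in the F-test over the 4 diets and 0.466 for the slope on dose (limma, Benjamini-Hochberg over 22811 probe sets). Few probe sets of any kind passed at an adjusted p under 0.05: 1 at 0.1% (0.00438%), 0 at 0.5% (0%), 1 at 1.0% (0.00438%), 2 in the F-test (0.00877%) and 0 for the slope (0%). At an unadjusted p under 0.05, 1 of the 17 member probe sets stood out at 0.1% (against 9.45% of all tested), 0 at 0.5% (5.27%), 3 at 1.0% (6.48%), 4 in the F-test (9.81%) and 4 for the slope (8.61%). The member probe sets came from 10 genes, so these counts are not of independent features. The median log2 change of the 17 was -0.0020 at 0.1%, -0.032 at 0.5% and -0.037 at 1.0%, against -0.0091, -0.011 and -0.017 over all probe sets tested.

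**Figure D1:**
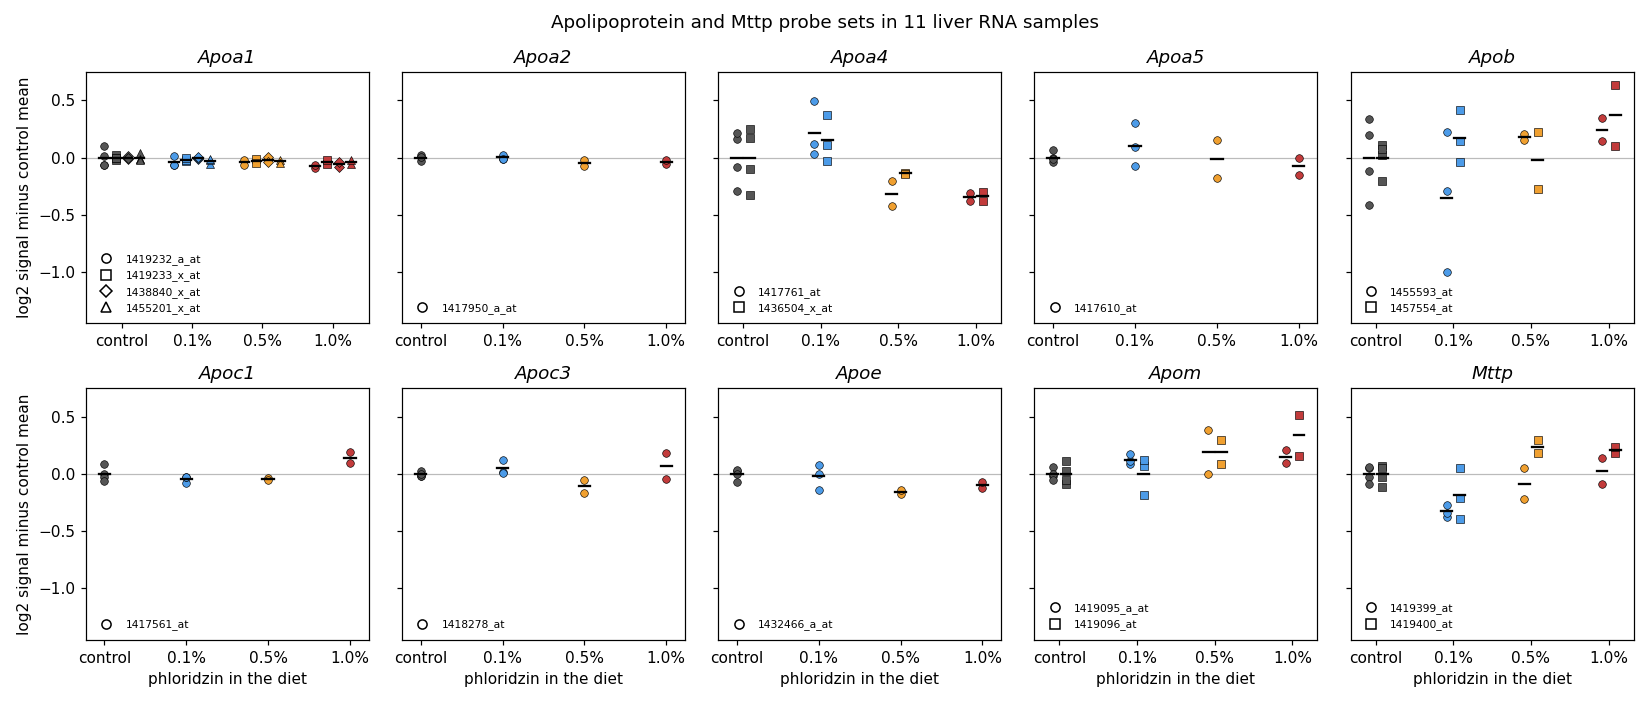
Log2 signal of each probe set minus its control mean (vertical axis) in the 4 control samples, 3 samples at 0.1%, 2 at 0.5% and 2 at 1.0% phloridzin. Each symbol is 1 RNA sample, marker shapes are probe sets of the same gene and horizontal bars are group means; the symbols of Apoa1 and Apoa2 hardly leave 0, and the lowest symbol of all is Apob 1455593_at in 0.1% replicate 5.

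Mttp, which transfers lipid to nascent apolipoprotein B, had a lower signal at 0.1% by 1 of its probe sets, without passing the test. Mttp 1419399_at had log2 signals of 9.18, 9.08 and 9.11 in 0.1% replicates 2, 4 and 5, against 9.50, 9.42, 9.51 and 9.36 in control samples. All samples at 0.1% lay below all control samples. The difference was -0.33 ± 0.10 (log2 change ± SE), with an unadjusted p of 0.0075 that did not survive adjustment (adjusted p = 0.412). Such a separation below the control samples at 0.1% was found for 4.69% of all probe sets, and among the members only for this one. Replicate 4, the lowest sample, also had the largest gap between the 3′ and 5′ actin probe sets, 2.32 log2 units against 1.31 to 1.54 in control samples; without it the change was -0.30. The other Mttp probe set, 1419400_at, had 10.78, 10.52 and 10.33 in the 0.1% samples, against 10.80, 10.78, 10.61 and 10.70 in control samples. Here the groups overlapped, and the change was -0.18 ± 0.11 (adjusted p = 0.597). It was -0.077 without replicate 5 and -0.30 without replicate 2.

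The higher doses did not continue that direction in Mttp. At 0.5%, 1419400_at had 10.91 and 11.02, and at 1.0% it had 10.91 and 10.96. All 4 of these values were above all control samples, with changes of 0.24 ± 0.12 at 0.5% (adjusted p = 0.948) and 0.21 ± 0.12 at 1.0% (adjusted p = 0.794). In contrast, 1419399_at had 9.50 and 9.23 at 0.5% and 9.59 and 9.36 at 1.0%, overlapping the control samples, with changes of -0.08 ± 0.12 and 0.03 ± 0.12. The 1.0% values of both probe sets changed sign when arrays were only centred on their medians (-0.27 for 1419399_at and -0.091 for 1419400_at), a setting under which the median change of all probe sets at this dose was -0.168. In the F-test the unadjusted p was 0.029 for 1419399_at and 0.014 for 1419400_at (adjusted p = 0.475 and 0.433).

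Apob, which encodes the structural protein of very-low-density lipoprotein, varied more between samples than any other member. The bright probe set 1455593_at had log2 signals of 12.46, 12.31, 12.01 and 11.70 in control samples, 11.83, 12.34 and 11.12 at 0.1%, 12.33 and 12.28 at 0.5%, and 12.26 and 12.46 at 1.0%. The control samples alone spanned 11.70 to 12.46, and 0.1% replicate 5 was the lowest of the 11 samples. The change at 0.1% was -0.36 ± 0.22 (adjusted p = 0.626). The 3 samples lay far apart: the change was -0.037 without replicate 5 and -0.64 without replicate 4. The changes at 0.5% and 1.0% were 0.18 ± 0.25 and 0.24 ± 0.25 (adjusted p = 0.984 and 0.894). Without control replicate 6 they were 0.044 and 0.10, without control replicates 1 and 3 they were 0.29 and 0.35, and without scaling they turned to -0.065 and -0.11. With the RNA of 2 labels kept, the change at 1.0% was -0.16. The second probe set, 1457554_at, was dimmer, at a mean log2 signal of 5.28. It differed by 0.18 ± 0.21, -0.02 ± 0.24 and 0.37 ± 0.24 at the 3 doses, low to high. Its highest value, 5.80, was in 1.0% replicate 4, without which the change at 1.0% was 0.10.

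Apoa1 and Apoa2, the main proteins of high-density lipoprotein, stayed within narrow limits on every diet after quantile normalization. The 4 Apoa1 probe sets and the Apoa2 probe set were among the 20 brightest of the array, and their SD over the 11 samples was 0.023 to 0.056 log2 units, against a median of 0.0442 (10th to 90th percentile 0.0252 to 0.0969) over all probe sets with a mean log2 signal of 13.5 to 14 and of 0.305 over all probe sets tested. In 1.0% samples Apoa1 1438840_x_at had 13.50 and 13.55, against 13.59, 13.60, 13.58 and 13.58 in control samples. The groups did not overlap, yet the change was only -0.06 ± 0.08 (adjusted p = 0.919), and the interval of the difference ran from -0.22 to 0.10. Apoa1 1419233_x_at was likewise lower in all 1.0% samples (13.63 and 13.66, against 13.67 to 13.71 in control samples). Across the 3 doses the 4 Apoa1 changes ran from -0.074 to -0.0020, and those of Apoa2 were 0.0032, -0.048 and -0.037, low to high dose.

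The narrow range of these probe sets is partly set by the scaling. Quantile normalization gives the same value to the same rank on every array, and 6 of the 11 samples shared the value 13.89 for Apoa1 1419232_a_at. Before scaling, the signal of this probe set ran from 13672 to 17387 over the arrays, and the highest signal on an array was 13888.5 to 21310.1. With arrays scaled to their 75th percentile instead, the Apoa1 changes at 1.0% were 0.21 to 0.25 and that of Apoa2 was 0.23, so the direction of both genes at this dose depends on the scaling.

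**Figure D2:**
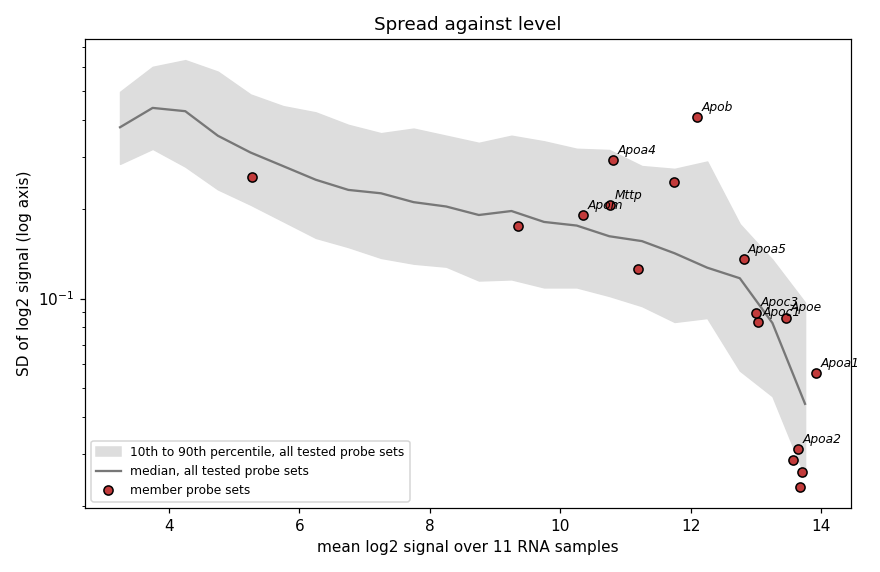
SD of the log2 signal over the 11 RNA samples (vertical log axis) against the mean log2 signal for the 17 member probe sets (points, the most variable probe set of each gene named), over the median and the 10th to 90th percentile of all 22811 tested probe sets in steps of 0.5 log2 units. Spread falls with signal, Apoa1 and Apoa2 lie at the lower right, and Apob 1455593_at, at an SD of 0.408, lies above the 90th percentile of 0.289 for its level.

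Apom, a carrier of sphingosine 1-phosphate on high-density lipoprotein, had a higher signal at 1.0% by both probe sets after quantile normalization but not without scaling, and neither passed the test. Apom 1419096_at had 10.76 and 10.41 in 1.0% samples, against 10.27, 10.36, 10.16 and 10.19 in control samples. The 1.0% samples lay above all control samples, and the change of 0.34 ± 0.13 (a 1.26-fold higher signal) had an unadjusted p of 0.020 and an adjusted p of 0.706. Apom 1419095_a_at had 11.31 and 11.19 in 1.0% samples, against 11.16, 11.08, 11.10 and 11.05 in control samples, again without overlap (0.15 ± 0.11, adjusted p = 0.838). Of all probe sets 8.34% lay above all control samples at 1.0%, compared with 4 of the 17 here. The size for 1419096_at depended on the larger of the samples: without replicates 2, 3, 5 and 6 it was 0.16, and without replicate 4 it was 0.52. With the RNA of 2 labels kept under each label it was 0.18. Its slope on dose was 0.36 ± 0.12 log2 units per percent of phloridzin, with the lowest unadjusted p of any member for the slope (0.0072, adjusted p = 0.466). Without any scaling both probe sets turned negative at 1.0% (-0.12 for 1419096_at and -0.29 for 1419095_a_at), where the median of all probe sets was itself -0.321, and with arrays centred on their medians 1419095_a_at was -0.13.

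At the lower doses the Apom probe sets differed. At 0.1%, 1419095_a_at had 11.19, 11.21 and 11.28, above all control samples (0.13 ± 0.10, adjusted p = 0.691), as did 4.01% of all probe sets, whereas 1419096_at had 10.31, 10.06 and 10.37 and a change of 0.0011 ± 0.11. At 0.5% they stood at 0.20 ± 0.11 and 0.19 ± 0.13 (adjusted p = 0.964 and 0.977). The 0.5% sample of replicates 1, 2, 3 and 6 carried most of this, at 11.49 and 10.55, while the sample of replicates 4 and 5 had 11.10 and 10.33. The first of these samples also had the highest acute phase score, 1.45 (mean log2 signal of 19 genes minus the control mean), against -0.11 to 0.065 in control samples, and the lowest clock output score, -0.761, against -0.13 to 0.135. Over the 11 samples, r with the log2 array median before scaling was -0.652 for Apom 1419095_a_at and -0.449 for 1419096_at. The median absolute r over all tested probe sets was 0.268. The part of the scores and of the array median in the Apom values was not tested.

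**Figure D3:**
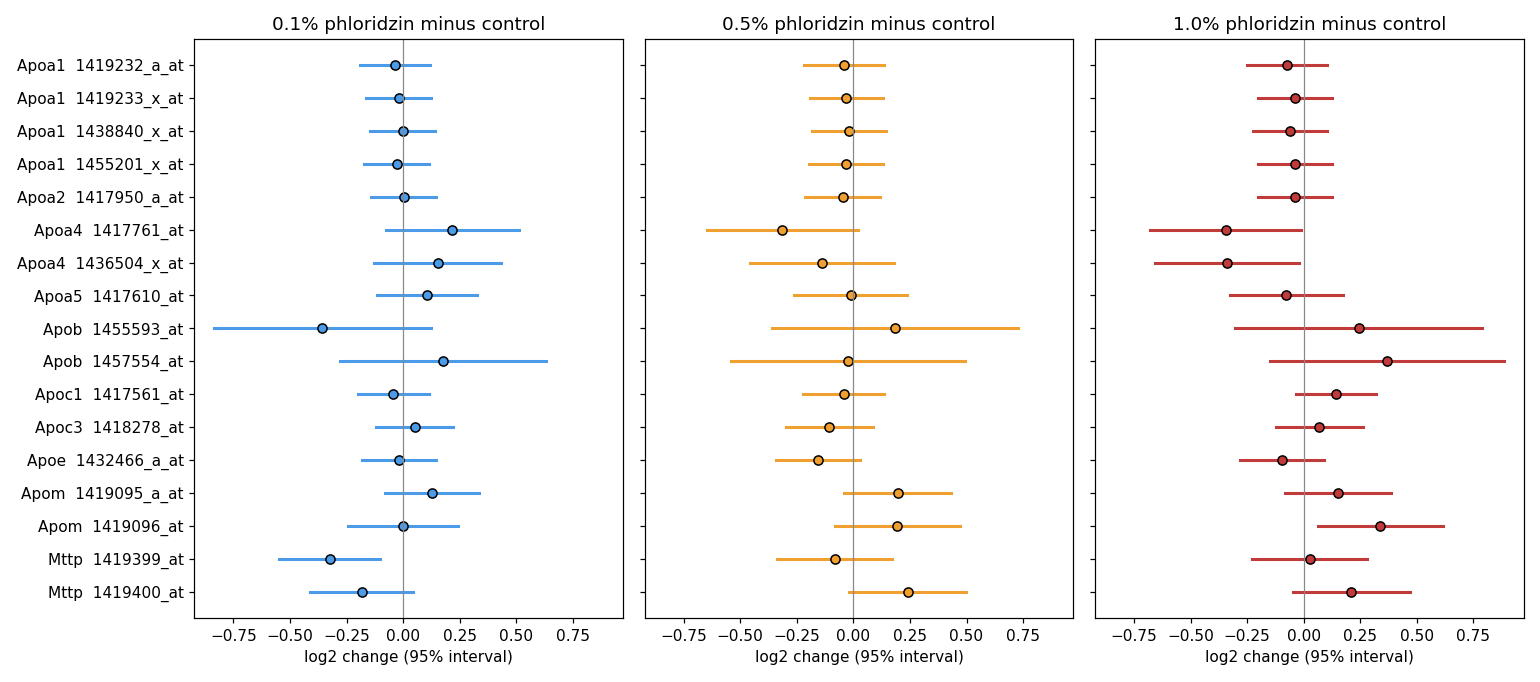
Log2 change of each of the 17 probe sets at 0.1, 0.5 and 1.0% phloridzin minus control (points) with the 95% interval of the limma fit (lines). Intervals that leave out 0 belong to Mttp 1419399_at at 0.1% and to both Apoa4 probe sets and Apom 1419096_at at 1.0%; none of these passed after adjustment.

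Apoa4, which encodes an apolipoprotein of the liver and, mainly, of the intestine, had lower signals at the higher doses by both probe sets, without passing the test. Apoa4 1417761_at had log2 signals of 10.57, 10.78, 11.03 and 11.08 in control samples, 10.98, 10.90 and 11.36 at 0.1%, 10.66 and 10.44 at 0.5%, and 10.48 and 10.56 at 1.0%. The 1.0% samples lay below all control samples, those at 0.5% overlapped the lowest of them, and the 0.1% samples lay in and above the control range. Its changes were 0.22 ± 0.14 at 0.1%, -0.31 ± 0.16 at 0.5% and -0.35 ± 0.16 at 1.0% (adjusted p = 0.626, 0.943 and 0.763). The slope was -0.48 ± 0.16 log2 units per percent of phloridzin, with an unadjusted p of 0.0089 and an adjusted p of 0.466.

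The second Apoa4 probe set gave similar values. Apoa4 1436504_x_at had 11.46, 11.69, 11.96 and 12.03 in control samples, 11.89, 11.76 and 12.16 at 0.1%, 11.65 and 11.64 at 0.5%, and 11.40 and 11.49 at 1.0%, with changes of 0.15 ± 0.13, -0.14 ± 0.15 and -0.34 ± 0.15. At 1.0% the higher sample reached just above the lowest control sample. The 0.1% values leaned on replicate 5, the highest sample for both probe sets, without which the changes at that dose were 0.077 and 0.042. Both probe sets kept their sign at each dose in all 28 alternative settings that tested them, but not their size. At 0.1% the changes of 1417761_at and 1436504_x_at were 0.027 and 0.0093 without scaling. At 1.0% they were -0.80 and -0.73 without scaling. The median of all probe sets without scaling was itself -0.165 at 0.1% and -0.321 at 1.0%. When the RNA with labels of 2 diets was kept under each label, the Apoa4 changes at 1.0% were -0.22 and -0.17. In bulk liver, fewer cells of a type and less RNA per cell cannot be told apart. All 8 hepatocyte markers measured passed the filter. Their score was -0.097 and -0.107 in 0.5% samples and 0.018 and -0.026 in 1.0% samples, against -0.071 to 0.036 in control samples. Of 6 enterocyte markers, 3 passed the filter. Vil1, Lct, Alpi and Krt20 reached the floor in some samples, while Fabp2 (log2 10.35 to 10.82) and Anpep (5.86 to 7.01) did not. The score over all 6, those at the floor included, was -0.206 and -0.209 in 1.0% samples, below the -0.10 to 0.108 of control samples. At 0.1% it was -0.172 in replicate 2, 0.134 in replicate 4 and 0.068 in replicate 5. The score of 4 erythroid markers was -0.329 and -0.465 in 1.0% samples, also below all control samples (-0.255 to 0.389). It was -0.178 and -0.357 in 0.5% samples and 0.303 in 0.1% replicate 5. That of 13 Kupffer cell and macrophage markers was -0.075 and -0.102 in 1.0% samples, below the -0.059 to 0.096 of control samples. It was as low or lower in 0.1% replicates 2 and 4 (-0.104 and -0.416), and -0.031 in 0.1% replicate 5. In the endothelial, stellate, cholangiocyte, leukocyte and adipocyte lists the 1.0% samples did not both lie below all control samples. The lowest endothelial score, -0.583, was in 0.1% replicate 4. The part of these scores in the Apoa4 values was not tested.

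Apoa5, whose product promotes the clearance of triglyceride, had 12.89, 12.72 and 13.09 at 0.1%, against 12.79, 12.86, 12.75 and 12.78 in control samples. The groups overlapped, and the change was 0.11 ± 0.10 (adjusted p = 0.771). It was 0.0080 without replicate 5, 0.20 without replicate 4 and -0.037 without scaling. The pair of samples at 0.5% lay far apart, at 12.62 and 12.95, so that the change there was -0.01 ± 0.12, and at 1.0% it was -0.08 ± 0.12 (0.022 with the RNA of 2 labels kept).

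Apoc3, whose product inhibits the lipolysis of triglyceride-rich particles, had 12.95 and 12.83 at 0.5%, against 13.02, 12.97, 12.98 and 13.00 in control samples. Apoe had 13.33 and 13.36 at 0.5%, against 13.53, 13.43, 13.54 and 13.51 in control samples. In both genes the 0.5% samples lay below all control samples, as they did for 9.81% of all probe sets, and they were the only member probe sets to do so. The changes were -0.11 ± 0.09 for Apoc3 and -0.16 ± 0.09 for Apoe (adjusted p = 0.984 and 0.963). With 75th percentile scaling Apoe turned to 0.0057 at 0.5% and 0.16 at 1.0%. Apoc3 at 0.5% was -0.047 without replicates 4 and 5, and -0.16 without replicates 1, 2, 3 and 6. Neither gene was separated at 1.0%, where the change was 0.07 ± 0.09 for Apoc3 and -0.09 ± 0.09 for Apoe. That of Apoc3 was -0.043 without replicates 2, 3, 5 and 6.

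Apoc1, which encodes a small apolipoprotein that inhibits the uptake of lipoprotein remnants, had 13.21 and 13.12 in 1.0% samples, against 13.11, 13.02, 13.00 and 12.96 in control samples. The 1.0% samples lay above all control samples, the lower of them narrowly (0.14 ± 0.08, adjusted p = 0.795; -0.0020 without scaling). At 0.1% and 0.5% its changes were both -0.04. In all, 4 member probe sets lay above and 3 below all control samples at 1.0%, when 8.34% and 11.7% of all probe sets did, and at 0.5% 1 lay above, Mttp 1419400_at, when 7.96% of all probe sets did.

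Where a gene had several probe sets, their agreement differed. Over the 11 samples Pearson's r was 0.942 for Apoa4, 0.606 for Apom, 0.494 for Mttp and 0.285 for Apob, and 0.23 to 0.897 for the 6 pairs of Apoa1 probe sets. These are descriptions, since the probe sets share the arrays and their scaling. In Mttp at 0.5% the 2 probe sets had changes of opposite sign (-0.08 ± 0.12 and 0.24 ± 0.12), as in Apob at 0.1% (-0.36 ± 0.22 and 0.18 ± 0.21). Mttp 1419399_at and Apob 1457554_at lay within their SE of 0 there, so no difference in direction is shown. In the Apob pair, 1457554_at was much dimmer than 1455593_at (mean log2 signals of 5.28 and 12.1). It ranked 13576 from the top of 45037 probe sets. Its signal before scaling was 14.39 to 64.35, when array medians ran from 9.49 to 18.

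**Figure D4:**
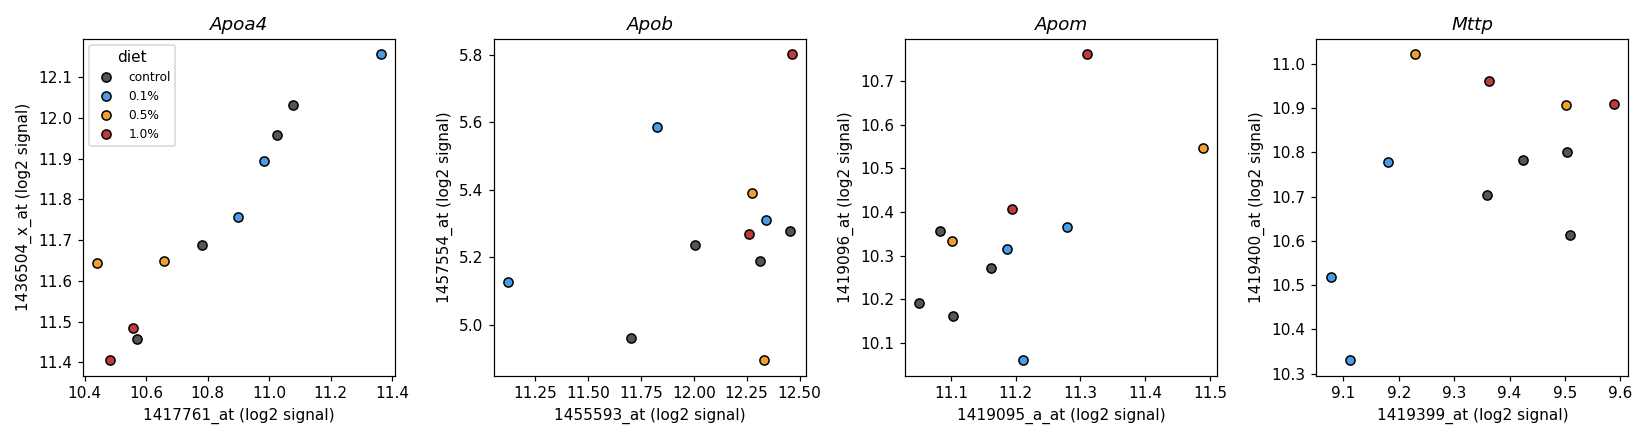
Log2 signals of the 2 probe sets of Apoa4, Apob, Apom and Mttp against each other, 1 point for each of the 11 RNA samples, coloured by diet. The Apoa4 points follow a line (r = 0.942), those of Apob do not (r = 0.285).

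Across the samples, without regard to diet, Apoa4 and Apob ran in opposite directions (r = -0.872, n = 11, brightest probe set of each), and Apob and Mttp ran together (r = 0.701). Apob and Apoa4 follow the main axis of variation in the data, the first principal component, which held 24.8% of the variance. Its r was 0.964 with Apob 1455593_at, -0.864 with the brighter Apoa4 1436504_x_at and -0.889 with Apoa4 1417761_at. With the brighter Mttp 1419400_at it was 0.804, and with Mttp 1419399_at 0.388. The median absolute r over all tested probe sets was 0.415. On this component 0.1% replicate 5 stood at -70.7 and the other 10 samples between -17 and 24.8. The weight of that sample in these r values was not tested. The 5 genes most like Apob over the 11 samples were Bcap29 (r = 0.986), Psip1 (0.985), Zranb2, Septin7 and Braf (0.978 each), and 269 of 13135 genes had an r above 0.9 with it. All 5 had their lowest value in 0.1% replicate 5, as Apob did, for example 5.61 for Bcap29 against 6.03 to 6.49 in control samples. The array median before scaling was 12.2 in that sample and 14.1 to 16.8 in control samples. It was 12.8 in 0.5% replicates 1, 2, 3 and 6 and 12.3 in 1.0% replicates 2, 3, 5 and 6. In these samples Apob 1455593_at stood at 12.33 and 12.26. Over the 11 samples the r of Apob 1455593_at with the log2 array median was 0.331, against a median absolute r of 0.268 over all. The part of the array median in these values was not tested.

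The RNA that carried labels of 0.1% and 1.0% had Mttp at 8.94 (1419399_at) and 10.15 (1419400_at) and Apob 1455593_at at 11.14, below all control samples in each case. If all 24 arrays were counted as separate samples under their labels, so that this RNA stood for 3 of 6 samples at 0.1%, Mttp passed at 0.1% by both probe sets (-0.42 and -0.40, adjusted p = 0.0055 and 0.015), as did Apob (-0.76, adjusted p = 0.011), and Apom 1419095_a_at passed at 0.5% (0.25, adjusted p = 0.043). In this setting 4284 of the 22793 probe sets tested passed at 0.1% and 724 at 0.5%. The calls count repeated measurements of 1 RNA as replicates.

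**Figure D5:**
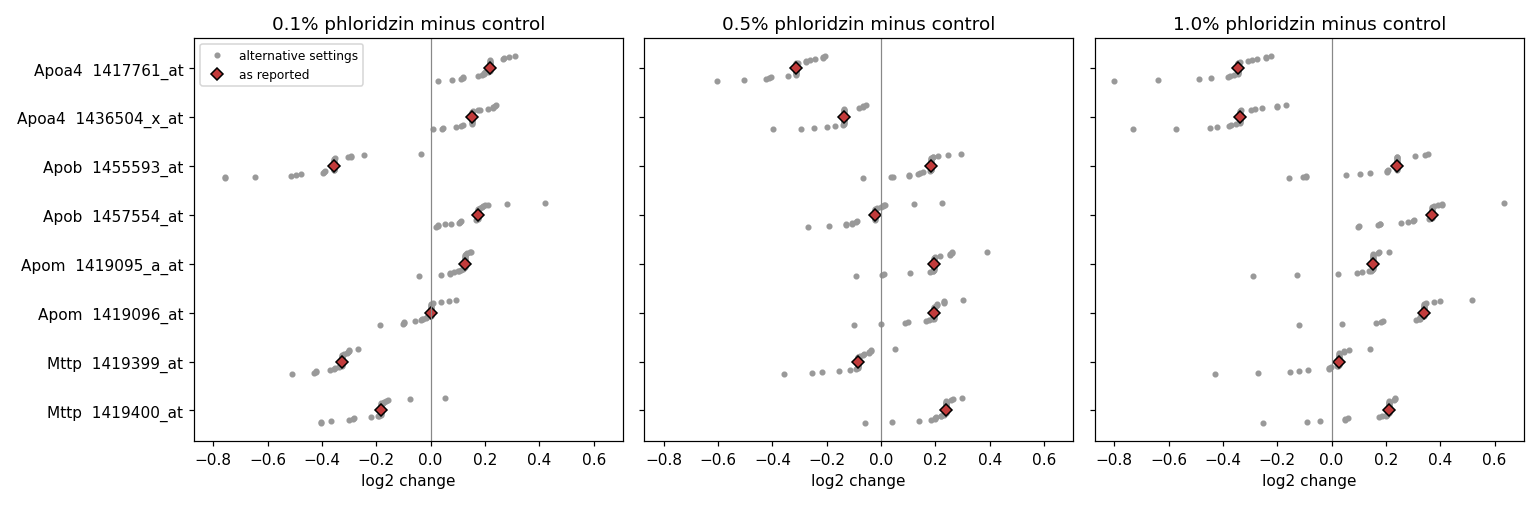
Log2 changes at 0.1, 0.5 and 1.0% phloridzin minus control for the probe sets of Apoa4, Apob, Apom and Mttp, as reported (diamonds) and under each alternative setting (grey points). The Apoa4 points stay on 1 side of 0 at each dose, and those of Apom and Mttp cross it at 1.0%.

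Other genes of lipoprotein metabolism also gave no call. In the lists of other apolipoproteins (10 genes measured), lipoprotein assembly and secretion (29), receptors and uptake (9), lipases, transfer proteins and their inhibitors (11), high-density lipoprotein formation and sterol export (6) and regulators of apolipoprotein genes (28), 0 genes passed in either direction in any comparison. At an unadjusted p under 0.05 in the F-test there were 0, 7, 2, 2, 1 and 8 genes in these lists, in that order, when 9.81% of all probe sets tested did so. Their median log2 changes at 1.0%, in the same order, were 0.022, -0.020, -0.17, -0.074, -0.037 and -0.061, against -0.026 over all genes. Among regulators, Nr0b2, a nuclear receptor that represses transcription, had 8.93 and 9.34 in 1.0% samples, against 10.09, 9.85, 10.32 and 9.91 in control samples. These did not overlap, and the change was -0.90 ± 0.21 at 1.0% as well as at 0.5% (adjusted p = 0.636 and 0.406). Nr1h4, the bile acid receptor, stood at 0.42 ± 0.12, 0.36 ± 0.14 and -0.29 ± 0.14 at the 3 doses, low to high. Nr1d1, a clock repressor, was -2.06 ± 0.42 at 0.5% (adjusted p = 0.384), with 3.56 in the sample of replicates 1, 2, 3 and 6 and 5.51 in that of replicates 4 and 5, against 6.46 to 6.69 in control samples.

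Of the assembly genes, Pdia3, a disulfide isomerase of the endoplasmic reticulum, had 10.37, 10.30 and 10.01 at 0.1%, against 10.76 to 10.84 in control samples (-0.58 ± 0.14, adjusted p = 0.338). The chaperone Canx was -0.27 ± 0.10 and Tm6sf2, which is needed for full lipidation of very-low-density lipoprotein, was 0.62 ± 0.19 at the same dose (adjusted p = 0.452 and 0.412). Among receptors, Vldlr, the very-low-density lipoprotein receptor, was dim and stood at 0.89 ± 0.24 at 0.1% and -0.79 ± 0.27 at 1.0% (adjusted p = 0.374 and 0.704). Cd36, a fatty acid translocase, was -0.63 ± 0.21 at 0.1%, and Sdc1, a proteoglycan that binds remnants, was 0.23 ± 0.13. Angptl8, an inhibitor of lipoprotein lipase activity, was -0.85 ± 0.30 at 0.5%, Gpld1 was -0.35 ± 0.15 and Pcolce2 was -0.61 ± 0.26 at 1.0%. The sterol exporter Abcg8 was -0.45 ± 0.13 at 0.5%, and Npc2 was -0.15 ± 0.14 at 1.0%. Abca1, which lipidates apolipoprotein A-I, was -0.40 ± 0.17 at 0.1%. It had 10.56, 10.52 and 9.79 in 0.1% replicates 2, 4 and 5, against 10.42 to 11.01 in control samples. Among other apolipoproteins Saa4 was -0.61 ± 0.24, Apoc4 0.13 ± 0.08 and Apoo -0.22 ± 0.10 at 0.1%. Only replicate 5 was below the control samples in Saa4, which had 11.22, 11.37 and 10.16 at 0.1% and 11.18 to 12.03 in control samples. Each gene named here is given at the dose where its change was largest, and Vldlr also at the next. Some had the other sign elsewhere, such as Angptl8 (0.25 ± 0.30 at 1.0%), Cd36 (0.14 ± 0.24 at 0.5%) and Pcolce2 (0.11 ± 0.26 at 0.5%). None of the genes named here passed, and their adjusted p-values at the doses of largest change were 0.338 or more.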

How the data were processed

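The deposited table holds linear intensities for 45101 probe sets on 24 Affymetrix arrays, 1 column per array. Biotin-labelled cRNA was made from oligo(dT)-primed cDNA, per the labels' protocols; how the authors summarised, background-corrected and scaled the signals is not given in the sources used here. Array medians ran from 9.49 to 18, so only differences after scaling were used, and the number of samples limits the precision. No detection calls or scan dates were used.

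Intensities were quantile-normalized, floored at 8 and log2-transformed (R 4.3.3). Pairs of arrays with an SD of the log2 difference under 0.08 over 1463 genes with mean log2 above 9 were averaged. Sets whose median absolute difference over the 200 most variable genes (mean log2 above 7) was under 1.2 times that of the other genes were averaged too; the joins had ratios of 0.929 and 1.1, the next pair 1.29. These thresholds, and the choice of median absolute difference over root mean square, were made after seeing the data. Probe sets in the lowest 40% of mean signal were dropped, and 22811 single-gene probe sets (13136 genes) were fitted with limma 3.58.1 (lmFit, eBayes with trend, 7 residual degrees of freedom, two-sided), adjusted by Benjamini-Hochberg and called at an adjusted p under 0.05. The model was tested on simulated data. Symbols come from the platform annotation; all 17 member probe sets matched a RefSeq gene of that symbol.

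The members and lists were chosen with earlier results of these data known. Named genes were all members, in each list any called gene or else up to 3 by lowest F-test p, and the 5 genes most like Apob, the most variable member. Replicate numbers did not pair the samples: same-numbered arrays of different diets correlated at -0.182 to 0.418 (median -0.0054, 36 pairs). Alternatives covered scaling, floor, filter, probe set choice, the joining of arrays, moderation and leaving out each sample.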

Additional observations from a re-analysis of the deposited data

Results flagged for a closer look

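The RNA that carried labels of 0.1% and 1.0% phloridzin entered no comparison. In it Apoa1 1438840_x_at had a log2 signal of 13.61, just above the highest control sample at 13.60, and Apoa5 1417610_at had 13.01, above the highest control sample at 12.86. These are single values of 1 RNA, whose diet the labels do not settle. None of the 17 member probe sets had a control sample that stood apart from the other control samples by Dixon's criterion.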

How the results depend on the processing

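No member probe set was called in the fit as reported. In 1434 member values over 29 settings 7 passed, all with the 24 arrays counted as separate samples. Without and with the replicate block, 4284 and 4403 of 22793 probe sets then passed at 0.1%, and 724 and 645 at 0.5%. The sign differed in 100 of the 1434, of which 84 were values within 1 SE of 0 as reported; the cause was not tested. Apoa4 kept its sign at every dose in all settings that tested it. The number of RNA samples limits every comparison, and at the top of the signal range quantile normalization limits what can be seen of Apoa1 and Apoa2. The median log2 change over all probe sets was -0.0833, -0.10 and -0.168 at 0.1, 0.5 and 1.0% with median centring and -0.165, -0.199 and -0.321 without scaling.

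With all 24 arrays as separate samples, with or without the replicate block, the sign at 0.1% turned, to 0.012, 0.0022 and 0.0088 for Apoa1 1419232_a_at and 1419233_x_at and 1438840_x_at, -0.0045 for Apoa2, -0.0015 for Apoc3 and -0.098 for Apom 1419096_at. At 1.0% it turned to -0.096 for Apob 1455593_at and -0.011 for Mttp 1419399_at. With the RNA of 2 labels kept under each label the sign at 0.1% turned, to 0.0046 for Apoa1 1438840_x_at and -0.037 for Apom 1419096_at. At 1.0% it turned to 0.022 for Apoa5, -0.16 for Apob 1455593_at and -0.15 and -0.043 for the Mttp probe sets. With median centring the sign at 0.1% turned, to 0.012 for Apoa1 1419232_a_at, -0.0081 for Apoa2 and -0.10 for Apom 1419096_at. At 0.5% it turned to 0.0055, 0.017 and 0.0033 for Apoa1 1419233_x_at and 1438840_x_at and 1455201_x_at. At 1.0% it turned to 0.062, 0.078, 0.076 and 0.094 for the Apoa1 probe sets, 0.082 for Apoa2, 0.0067 for Apoe, -0.13 for Apom 1419095_a_at and -0.27 and -0.091 for the Mttp probe sets. Without scaling the sign at 0.1% turned, to -0.092 for Apoa2, -0.037 for Apoa5, -0.067 for Apoc3 and -0.044 and -0.19 for the Apom probe sets. At 0.5% it turned to -0.065 for Apob 1455593_at, -0.092 and -0.10 for the Apom probe sets and -0.061 for Mttp 1419400_at. At 1.0% it turned to -0.11 for Apob 1455593_at, -0.0020 for Apoc1, -0.078 for Apoc3, -0.29 and -0.12 for the Apom probe sets and -0.43 and -0.25 for the Mttp probe sets. With 75th percentile scaling the sign at 0.1% turned, to 0.10, 0.081, 0.067 and 0.077 for the Apoa1 probe sets, 0.038 for Apoc1, 0.049 for Apoe and -0.012 for Apom 1419096_at. At 0.5% it turned to 0.071, 0.10, 0.11 and 0.10 for the Apoa1 probe sets, 0.077 for Apoa2, 0.0028 for Apoa5, 0.0089 for Apob 1457554_at, 0.023 for Apoc1 and 0.0057 for Apoe. At 1.0% it turned to 0.21, 0.23, 0.23 and 0.25 for the Apoa1 probe sets, 0.23 for Apoa2, 0.16 for Apoe and -0.12 for Mttp 1419399_at. With a floor of 32 the sign at 0.5% turned, to 0.12 for Apob 1457554_at. With an offset of 50 the sign at 0.5% turned, to 0.0082 for Apob 1457554_at. Without both 0.1% replicates 4 and 5 the sign at 0.1% turned, to -0.0084 for Apoa2, 0.0037 for Apoe and 0.053 for Mttp 1419400_at. Leaving out 1 sample at a time turned signs within these ranges of the log2 change: -0.27 to 0.22 for Apob 1457554_at at 0.5%, -0.0072 to 0.0034 for Apoa1 1438840_x_at at 0.1%, -0.18 to 0.15 for Apoa5 at 0.5%, -0.0084 to 0.012 for Apoa2 at 0.1%, -0.058 to 0.095 for Apom 1419096_at at 0.1%, -0.060 to 0.0 for Apoa1 1419232_a_at at 0.1%, -0.086 to 0.14 for Mttp 1419399_at at 1.0%, -0.067 to 0.043 for Apoe at 0.1%, -0.22 to 0.053 for Mttp 1419399_at at 0.5%, -0.042 to 0.0011 for Apoa1 1438840_x_at at 0.5% and -0.043 to 0.18 for Apoc3 at 1.0%.

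The numbers of probe sets passing over the whole array were 1, 0, 1, 2 and 0 for 0.1%, 0.5%, 1.0%, the F-test and the slope, and they moved by over 1.5 times in many settings. In that order they were 4284, 724, 582, 7456 and 174 with all 24 arrays separate and 4403, 645, 492, 7421 and 39 with the replicate block added. They were 3, 26, 7, 67 and 7 with no joining by fingerprint, 0, 3, 0, 1 and 2 without scaling, 0, 3, 19, 16 and 3 with a floor of 32, and 2, 8, 14, 23 and 3 without the filter. With the RNA of 2 labels kept, those for 0.1%, 1.0% and the F-test were 0. Median centring gave 4 at 1.0% and 6 for the slope. A floor of 1 gave 2 at 0.5%, 2 at 1.0% and 1 in the F-test. Leaving out the lowest 60% gave 0 in the F-test. With 1 probe set per gene there were 3, 1 and 2 at the 3 doses. Without x_at, s_at and a_at probe sets there were 2 at 0.1% and 2 at 1.0%. Without the trend the numbers at 0.1%, 1.0% and in the F-test were 0, and robust moderation gave 3 at 0.1% and 4 in the F-test. Among alternatives chosen after seeing the data, root mean square gave 3, 12, 2 and 6 for the 3 doses and the F-test, and leaving out both 0.1% replicates 4 and 5 gave 3 at 1.0%, 0 in the F-test and 1 for the slope. Leaving out 1 sample gave 0 to 3 at 0.1%, 0 to 8 at 0.5%, 0 to 4 at 1.0%, 0 to 8 in the F-test and 0 to 1 for the slope. No member passed in the settings that leave out a sample. No pairing by replicate number was seen, so the block is given here only.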
